A study of Saccharomyces cerevisiae BY4741 with 6 samples.

Results

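The 10 genes described here encode the enzymes of the tricarboxylic acid (TCA) cycle in the mitochondrial matrix of the budding yeast Saccharomyces cerevisiae. They were taken by systematic name from the 5631 rows of the count table, all 10 were present, and all 10 passed the filter on low counts. The rule names genes and sets no threshold on measured values, but the set was chosen with earlier results of these data known. The study asked whether loss of PEX3, a gene needed to form functional peroxisomes, alters the transcriptome. It sequenced poly(A) RNA from 3 cultures of a pex3 deletion strain (MATa his3Δ1 leu2Δ0 met15Δ0 ura3Δ0 pex3::kanMX4) and 3 cultures of its wild-type parent BY4741 (WT, the same genotype with PEX3 intact). Every culture was kept at 30 °C in shake flasks, first on glucose and then on mineral medium with 0.5% acetate, and was collected at an optical density of 0.5 at 660 nm. Both strains carry the his3, leu2, met15 and ura3 deletions of the BY4741 background, and each strain comes from a single strain-collection entry.

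The TCA cycle joins the acetyl group of acetyl-CoA to oxaloacetate and oxidises it stepwise, passing electrons to the respiratory chain. On acetate, which yeast cannot ferment, the cycle works beside the glyoxylate cycle, a bypass that turns acetyl-CoA into building blocks for sugars and amino acids. Transcription of many TCA cycle genes is known to depend on the Hap2-Hap3-Hap4-Hap5 complex, which binds CCAAT elements, while CIT1, ACO1, IDH1 and IDH2 can also be driven by the retrograde regulators Rtg1 and Rtg3 when respiration is impaired.

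Library totals ran from 7682260 to 9395281 counts in the pex3 strain and from 6782522 to 9410398 counts in WT. PEX3 was not analysed here, so the strain labels were taken as given. Among mating-type genes, the a-specific protease gene BAR1 averaged 96.6 ± 10.9 CPM in the pex3 strain and 116 ± 3.24 CPM in WT (SD, n = 3 each), and the alpha-specific receptor gene STE3 averaged 27.9 ± 1.72 CPM in the pex3 strain and 29.6 ± 3.36 CPM in WT (SD, n = 3 each). CPM puts every library on the same total, with trimmed-mean (TMM) factors as a further scaling. WT replicate 1 stood apart from the other WT libraries, with Pearson coefficients across genes of 0.985 and 0.98 to WT replicates 2 and 3, which were at 0.993 to each other. Within the pex3 strain, replicate 1 was at 0.991 and 0.984 to replicates 2 and 3, which were at 0.993 to each other. Longer genes also read higher in some libraries than in others. Over 5519 genes, Spearman's rho of coding length with a library's departure from the mean log2 CPM was 0.34 in WT replicate 1, -0.13 in WT replicate 2 and -0.39 in WT replicate 3, with values from -0.16 to 0.16 in the pex3 libraries.

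No matrix TCA cycle gene passed the test between the strains. Of the 10 genes, 9 had a fold change above 0, that is, higher in the pex3 strain, where 51.4% of all 5628 tested rows did. Their median log2 fold change was 0.16, against 0.01 for all tested rows. The subunits of isocitrate dehydrogenase, IDH1 and IDH2, had estimates of 1.23-fold and 1.24-fold the WT level, whereas both subunits of succinyl-CoA ligase and the alpha-ketoglutarate dehydrogenase genes KGD1 and KGD2 lay between -0.01 and 0.08 on the log2 scale. At an edgeR quasi-likelihood adjusted p under 0.05 over all rows, 0 of the 10 were called, against a background of 0.178% of rows called. DESeq2 called 0 of the 10, against 1.03% of rows, and limma voom 0 of the 10, against 0.178%. Of the members, 2 had an unadjusted edgeR p under 0.05, against 9.08% of all rows. That count was 6 of 10 without WT replicate 3, where 799 of 5629 rows had such a p. It was 4 of 10 with the replicate number as a block, where 401 of 5628 rows did. Under every other alternative the member count was 2 or 3, as in the main fit or close to it.

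**Figure D1:**
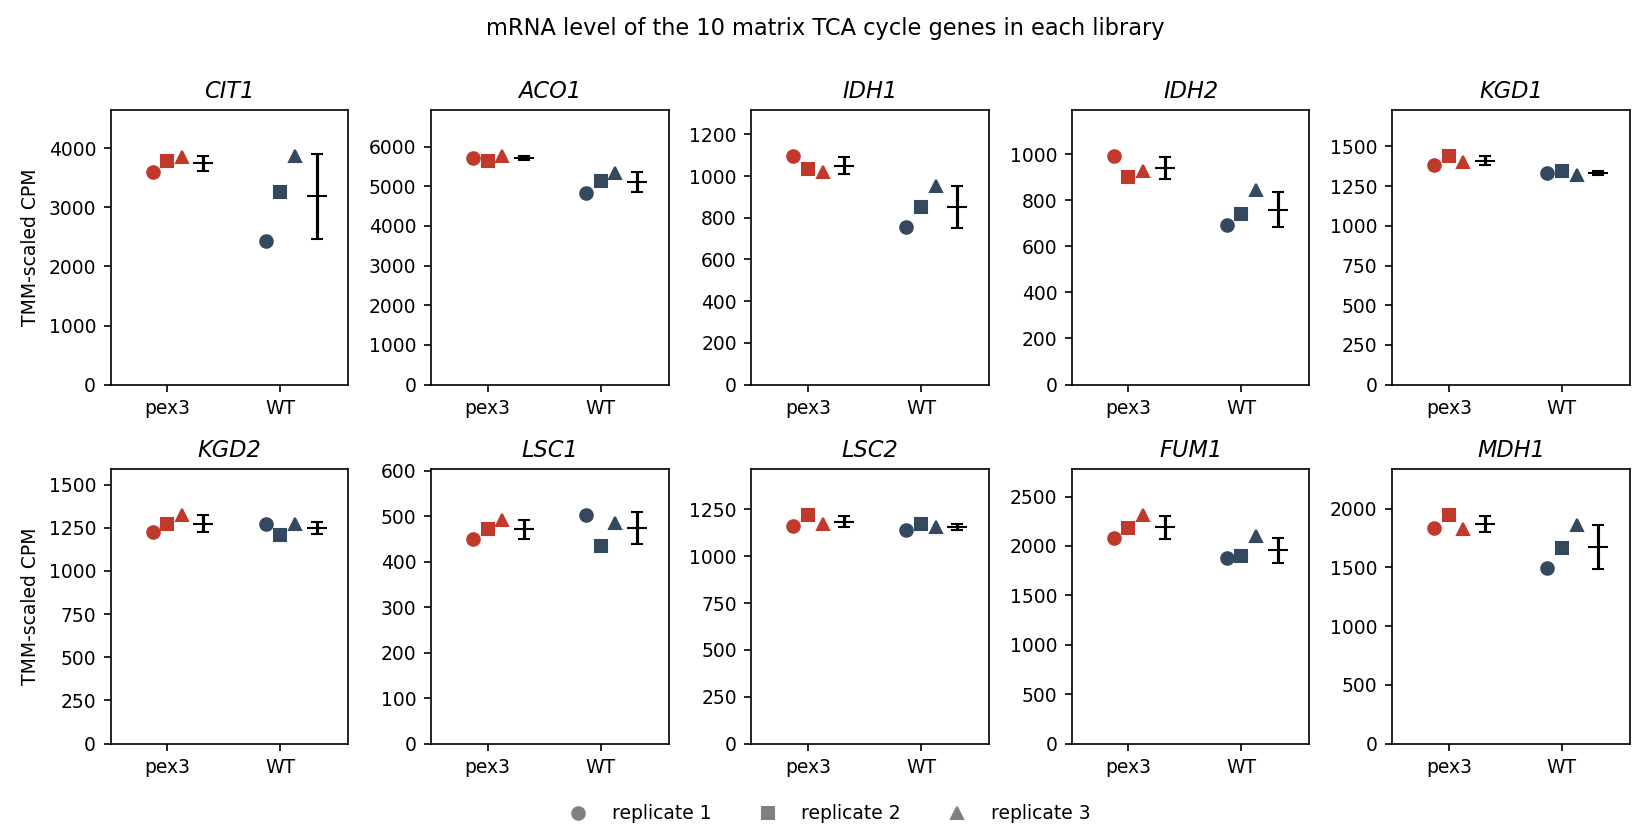
Each panel shows 1 gene, with TMM-scaled CPM on a linear axis starting at 0. Points are libraries (pex3 red, WT dark, the marker shape gives the replicate number), and the bar beside them is the mean ± SD of 3 libraries. For IDH1, the pex3 libraries sit between 1019 and 1096 CPM and the WT libraries between 754 and 954 CPM.

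The genes were ordered first by their level per length. The scale was CPM per kilobase of coding sequence, averaged over the 6 libraries. CIT1 (YNR001C), which encodes the citrate synthase that opens the cycle, was at 2408, and ACO1 (YLR304C), the aconitase that isomerises citrate, at 2314. MDH1 (YKL085W), the malate dehydrogenase that closes the cycle, followed at 1761, and FUM1 (YPL262W), the fumarase, at 1413. These 4 genes formed an upper group: the lowest FUM1 library, at 1278 CPM per kilobase, was above every library of the 6 genes below it.

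A middle group held LSC2 (YGR244C), the beta subunit of succinyl-CoA ligase, at 911 CPM per kilobase, KGD2 (YDR148C), the succinyltransferase subunit of the alpha-ketoglutarate dehydrogenase complex, at 907, IDH1 (YNL037C) at 878 and IDH2 (YOR136W) at 765. LSC1 (YOR142W), the alpha subunit of the ligase, at 477, and KGD1 (YIL125W), the dehydrogenase subunit that carries thiamine diphosphate, at 451, were lowest. CIT1 had 5.34 times the level of KGD1. Ranges over the 6 libraries overlapped between CIT1 and ACO1, between MDH1 and FUM1, among neighbours of the middle group, and between LSC1 and KGD1. They did not overlap between ACO1 and MDH1, FUM1 and LSC2, or IDH2 and LSC1. CIT1 and MDH1, which are not neighbours in the order, did overlap. CIT1 was at 1693 in WT replicate 1, below the highest MDH1 library at 1935. KGD1, the lowest, was still above 93.5% of the 5515 protein-coding genes in the table by mean level per length, and CIT1 was above 99.6%.

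The 4 top places were the same in the pex3 libraries alone and in the WT libraries alone. In the pex3 libraries alone, IDH1, at 969 ± 37.4 CPM per kilobase (SD, n = 3), moved ahead of LSC2 at 922 ± 23.9 and KGD2 at 915 ± 34.9. In the WT libraries alone IDH1 was at 788 ± 92.3 CPM per kilobase, behind LSC2 at 900.0 ± 11.2 and KGD2 at 898 ± 24.5.

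**Figure D2:**
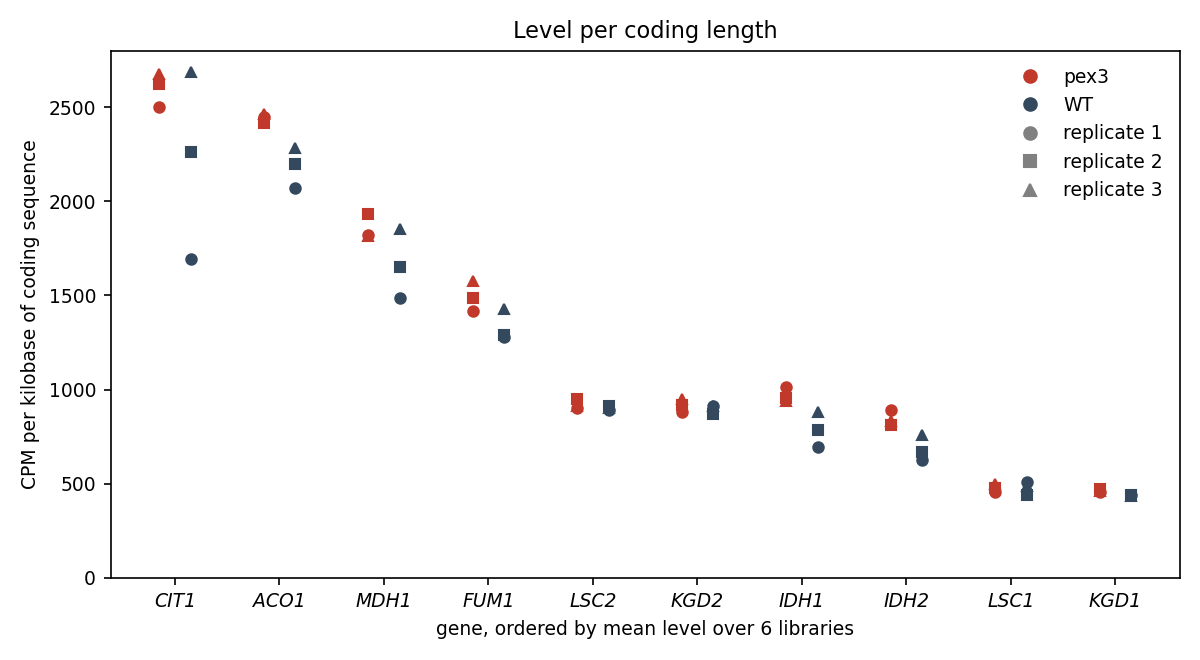
The vertical axis is CPM per kilobase of coding sequence, and the genes run from the highest to the lowest mean over 6 libraries. Points are single libraries (pex3 red, left; WT dark, right). CIT1 and ACO1 share the top, and LSC1 and KGD1, at means of 477 and 451, share the bottom.

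At the entry of the cycle, CIT1 measured 3599, 3779 and 3857 CPM in pex3 replicates 1, 2 and 3, against 2437, 3260 and 3870 CPM in the WT replicates of the same numbers. WT replicate 1 was the lowest of all, WT replicate 3 was the highest, and the strains overlapped. The log2 fold change was 0.23 (SE 0.15, 95% interval -0.12 to 0.59, edgeR adjusted p 0.631). Within WT the coefficient of variation of CIT1 was 22.5%, against 3.52% within the pex3 strain. The CIT1 fold change was 0.07 on the log2 scale without WT replicate 1 and 0.40 without WT replicate 3.

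ACO1 measured 5723, 5647 and 5764 CPM in the pex3 libraries, against 4839, 5138 and 5332 CPM in the WT libraries. All pex3 libraries were above all WT libraries. The log2 fold change was 0.16 (SE 0.07, 95% interval -0.002 to 0.33, edgeR adjusted p 0.539). ACO1 had the most even level within the pex3 strain among the members, with a coefficient of variation of 1.03%.

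Isocitrate dehydrogenase, the NAD-dependent enzyme that makes alpha-ketoglutarate, is an octamer of IDH1 and IDH2 subunits. IDH1 measured 1096, 1034 and 1019 CPM in the pex3 libraries, against 754, 852 and 954 CPM in the WT libraries. IDH2 measured 991, 901 and 927 CPM in the pex3 libraries, against 692, 741 and 842 CPM in the WT libraries. For both genes every pex3 library lay above every WT library, and both had their highest value in pex3 replicate 1 and their lowest in WT replicate 1.

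IDH1 had a log2 fold change of 0.30 (SE 0.10, 95% interval 0.07 to 0.52) and IDH2 one of 0.31 (SE 0.09, 95% interval 0.10 to 0.52). The intervals are those of single genes, without adjustment for the 5628 tests. The unadjusted p was 0.0154 for IDH1 and 0.0102 for IDH2, and the edgeR adjusted p was 0.487 and 0.455. Without WT replicate 1 the log2 fold changes were 0.22 and 0.25. Coding lengths are 1083 bases for IDH1 and 1110 for IDH2, and after each library was corrected for coding length the fold changes were 0.32 and 0.33 (edgeR adjusted p 0.384 and 0.365).

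The alpha-ketoglutarate dehydrogenase complex oxidises alpha-ketoglutarate to succinyl-CoA. KGD1 measured 1386, 1440 and 1405 CPM in the pex3 libraries, against 1335, 1347 and 1323 CPM in the WT libraries. The strains did not overlap, yet the log2 fold change was 0.08 (SE 0.07, 95% interval -0.07 to 0.23, edgeR adjusted p 0.694). KGD2 measured 1226, 1274 and 1323 CPM in the pex3 libraries, against 1269, 1210 and 1270 CPM in the WT libraries. For KGD2 the strains overlapped, with a log2 fold change of 0.03 (SE 0.07, 95% interval -0.13 to 0.19, edgeR adjusted p 0.917).

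Succinyl-CoA ligase makes the only nucleoside triphosphate formed directly in the cycle. LSC1 measured 449, 472 and 492 CPM in the pex3 libraries, against 502, 433 and 485 CPM in the WT libraries, and its highest and lowest values were both in WT. LSC2 measured 1161, 1219 and 1173 CPM in the pex3 libraries, against 1141, 1170 and 1155 CPM in the WT libraries. The log2 fold changes were -0.01 for LSC1 (SE 0.08, 95% interval -0.20 to 0.18) and 0.04 for LSC2 (SE 0.07, 95% interval -0.12 to 0.19), and the edgeR adjusted p was 0.986 for LSC1 and 0.887 for LSC2. The sign of the LSC1 value depended on the setting, being 0.02 with the length correction and 0.04 without WT replicate 1.

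FUM1, whose protein is found in both mitochondria and cytosol, measured 2081, 2180 and 2312 CPM in the pex3 libraries, against 1874, 1894 and 2097 CPM in the WT libraries. The lowest pex3 library was just under the highest WT library. The log2 fold change was 0.16 (SE 0.08, 95% interval -0.02 to 0.35, edgeR adjusted p 0.567). MDH1 measured 1832, 1944 and 1826 CPM in the pex3 libraries, against 1492, 1661 and 1863 CPM in the WT libraries. Its log2 fold change was 0.16 (SE 0.09, 95% interval -0.06 to 0.38, edgeR adjusted p 0.609), and it was 0.08 without WT replicate 1 and 0.24 without WT replicate 3.

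**Figure D3:**
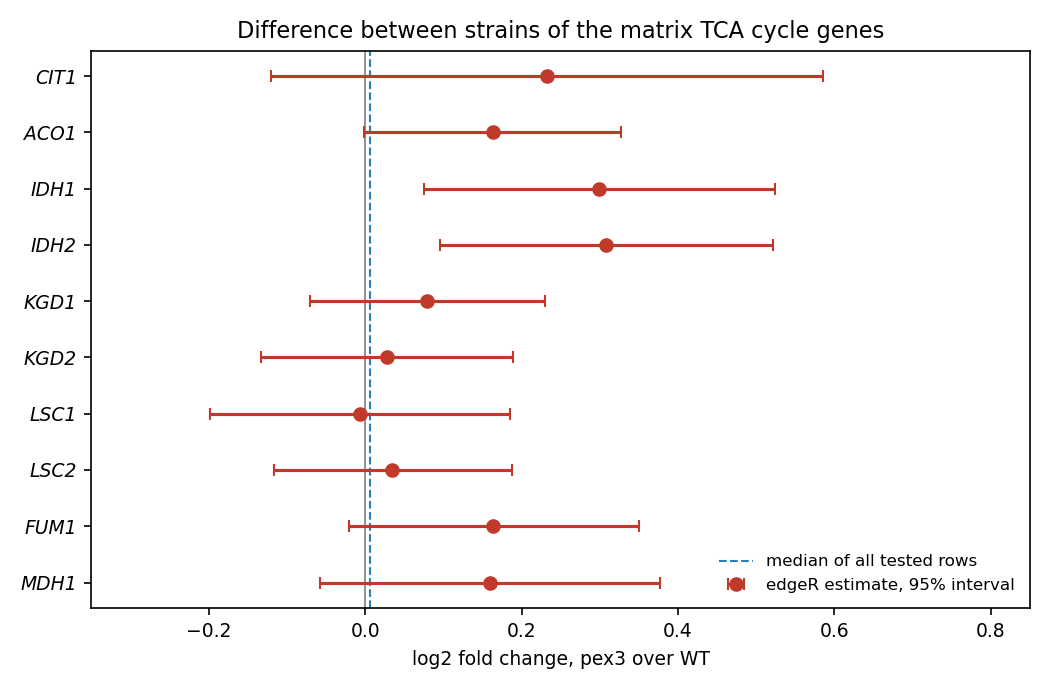
Points are edgeR log2 fold changes (pex3 over WT) with 95% intervals from the fit over all rows, from 3 libraries per strain. The dashed line is the median of all tested rows, 0.01. The intervals of IDH1 and IDH2 lie above 0, while those of KGD1, KGD2, LSC1 and LSC2 stay between -0.20 and 0.23.

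The pex3 libraries lay above all WT libraries for 4 members, ACO1, IDH1, IDH2 and KGD1, and below them for 0. Over all tested rows, 8.72% lay above and 7.73% below. The widest member interval, that of CIT1, reached from 0.919-fold to 1.5-fold. The narrowest, that of KGD1, reached from 0.952-fold to 1.17-fold. Counts per member and library ran from 2960 (LSC1, WT replicate 2) to 52963 (ACO1, pex3 replicate 2).

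Together the 10 genes took 1.97%, 1.99% and 1.99% of all counts in the pex3 libraries, against 1.63%, 1.78% and 1.92% in the WT libraries. The pex3 libraries were nearly equal to each other and above each WT library, and the WT libraries were spread more widely. The mean of the 10 genes, each centred on its own log2 CPM mean over the 6 libraries, was 0.06, 0.08 and 0.09 in the pex3 libraries, against -0.16, -0.09 and 0.03 in the WT libraries. Without WT replicate 1 the median log2 fold change of the 10 genes was 0.08 in place of 0.16, and without WT replicate 3 it was 0.21.

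The members did not share one profile within WT. WT replicate 1 was below the mean of WT replicates 2 and 3 by 0.54 on the log2 scale for CIT1, 0.26 for IDH1, 0.24 for MDH1 and 0.19 for IDH2, whereas it was above that mean by 0.03 for KGD2 and 0.13 for LSC1. Over all rows with a coding length under 1200 bases, the median of this difference was -0.10 (2594 rows), and it was 0.06 for 1605 rows from 1200 to 2000 bases and 0.05 for 1320 longer rows. The 4 members under 1200 bases (IDH1, IDH2, LSC1 and MDH1) had a median of -0.21. It was -0.058 for the 4 members from 1200 to 2000 bases and -0.056 for the 2 longer members. The member median was thus below the median of all rows in each length class. LSC1, at 0.13 in the shortest class, was above the median of all rows there. The part of gene length in the member values was not tested beyond the length correction, under which the member median was 0.17.

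Residual spread also differed among members. The residual SD of log2 CPM within strains was 0.24 for CIT1, larger than in 90.0% of the 500 rows nearest in mean level. It was 0.02 for KGD1 and 0.03 for LSC2, larger than in only 1.0% and 2.0% of their nearest rows. For the other members this share of nearest rows ran from 7.0% (KGD2) to 57.2% (IDH1). The median residual SD over the 10 genes was 0.09, against 0.13 over all tested rows, which are not matched to the members in level.

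**Figure D4:**
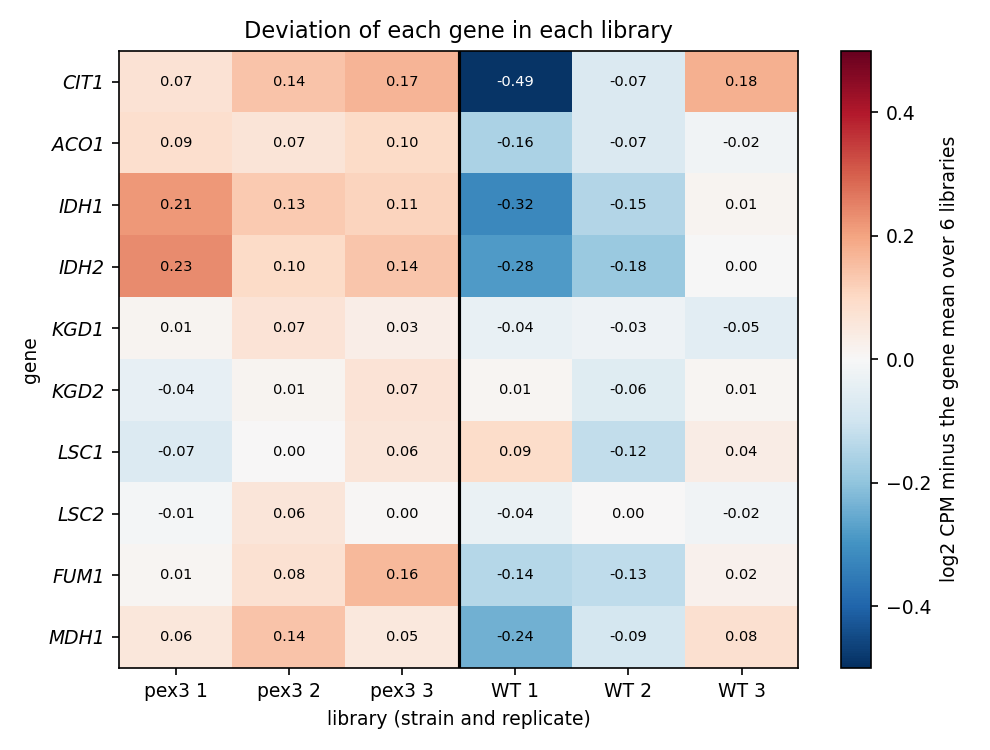
Rows are the 10 genes and columns are libraries (3 pex3, then 3 WT). Each cell holds log2 CPM minus the mean of that gene over 6 libraries, with red above and blue below. CIT1 in WT replicate 1, at -0.49, is the lowest cell, and the KGD1, KGD2, LSC1 and LSC2 rows stay pale.

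Ratios within a library do not depend on library scaling, so subunits of 1 enzyme were compared as ratios per coding length. The IDH1 to IDH2 ratio was 1.13, 1.18 and 1.13 in the pex3 libraries, against 1.12, 1.18 and 1.16 in the WT libraries. Its total range over 6 libraries was 0.08 on the log2 scale, while IDH1 alone ranged over 0.54 and IDH2 alone over 0.52. The difference in mean log2 ratio (pex3 minus WT) was -0.01 (SE 0.03, two-sided exact permutation p = 0.9, n = 3 against 3).

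KGD1 stood at 0.517, 0.516 and 0.486 of the KGD2 level in the pex3 libraries, against 0.481, 0.509 and 0.476 in the WT libraries. LSC1 stood at 0.502, 0.503 and 0.544 of the LSC2 level in the pex3 libraries, against 0.571, 0.48 and 0.544 in the WT libraries. The differences in log2 ratio were 0.05 (SE 0.04, exact permutation p = 0.2) and -0.04 (SE 0.08, exact permutation p = 0.6). A ratio does not remove the uneven effect of coding length between libraries where 2 genes differ in length. With the length correction the differences were 0.03 for KGD1 over KGD2 (exact permutation p = 0.4) and -0.04 for LSC1 over LSC2 (exact permutation p = 0.7). For all 3 subunit pairs the strains overlapped.

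Citrate synthase and malate dehydrogenase have isozymes outside the set. CIT2 is the peroxisomal citrate synthase, CIT3 a second mitochondrial one that also acts on propionyl-CoA, MDH2 the cytosolic and MDH3 the peroxisomal malate dehydrogenase. CIT2 measured 1248, 2059 and 2270 CPM in the pex3 libraries, against 1583, 2151 and 2427 CPM in the WT libraries (log2 fold change -0.14, SE 0.23, edgeR adjusted p 0.864). CIT3 measured 180.1, 196 and 231 CPM in the pex3 libraries, against 202, 264 and 265 CPM in the WT libraries (log2 fold change -0.27, SE 0.14, edgeR adjusted p 0.574).

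The CIT1 to CIT3 ratio per coding length was 20.2, 19.6 and 16.9 in the pex3 libraries, against 12.3, 12.5 and 14.8 in the WT libraries. The groups did not overlap, and the difference in log2 ratio was 0.52 (SE 0.12). The CIT1 to CIT2 ratio was 2.77, 1.76 and 1.63 in the pex3 libraries, against 1.48, 1.46 and 1.53 in the WT libraries, a difference of 0.42 (SE 0.24) that was 0.19 without pex3 replicate 1. Both had an exact permutation p of 0.1 (two-sided, n = 3 against 3), the smallest this design can give, and 0.35 after Benjamini-Hochberg adjustment over the 7 pairs. CIT1 is 74.7% identical to CIT2 over 90.1% of its length at the nucleotide level, so some reads may be shared between them.

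MDH1 stood at 4.61, 4.79 and 4.44 times the MDH3 level per coding length in the pex3 libraries, against 3.87, 4.61 and 5.07 times in the WT libraries. MDH1 stood at 0.626, 0.558 and 0.48 of the MDH2 level in the pex3 libraries, against 0.448, 0.548 and 0.597 in the WT libraries, so on acetate the cytosolic isozyme had the more abundant mRNA in both strains. The exact permutation p of these differences was 0.9 for MDH1 over MDH3 and 0.6 for MDH1 over MDH2 (n = 3 against 3). Adjusted over the 7 pairs, the exact p of the 5 pairs other than CIT1/CIT2 and CIT1/CIT3 ranged from 0.467 to 0.9. The log2 differences were 0.04 (SE 0.12) for MDH1 over MDH3 and 0.06 (SE 0.17) for MDH1 over MDH2. MDH3 alone measured 408, 417 and 422 CPM in the pex3 libraries, against 396, 369 and 377 CPM in the WT libraries (log2 fold change 0.13, SE 0.07, edgeR adjusted p 0.589).

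**Figure D5:**
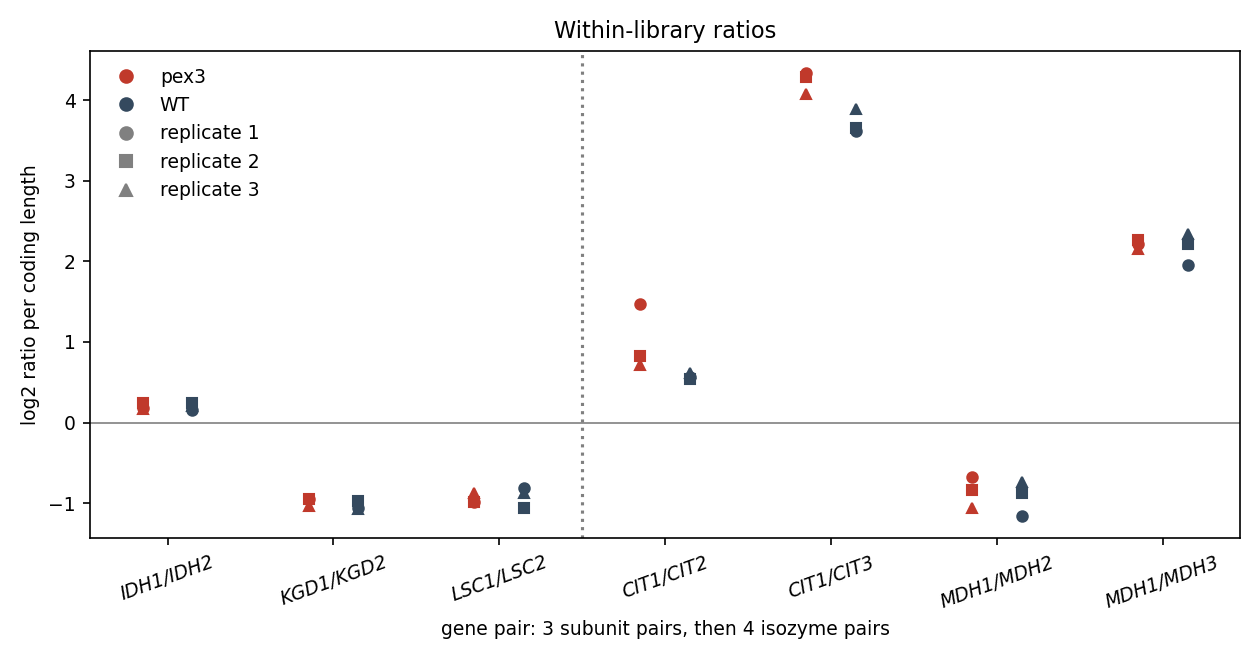
The vertical axis is the log2 ratio of the level per coding length of 2 genes in the same library, with 0 meaning equal levels. Points are libraries (pex3 red, left; WT dark, right), for 3 subunit pairs and 4 isozyme pairs. The IDH1/IDH2 points span 0.08, and the CIT1/CIT3 and CIT1/CIT2 pairs are those whose strains do not overlap.

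Around the matrix enzymes, 55 other genes of the pathway were read in the same fit. Of them, 0 passed an edgeR adjusted p of 0.05 in either direction, against 0.178% of all rows. An unadjusted edgeR p under 0.05 was found for 3 of the 55, against 9.08% of all rows. DESeq2 called 2 of the 55, HAP4 and MAE1, both higher in the pex3 strain, against 1.03% of rows. With limma voom 0 were called, against 0.178%. The median log2 fold change of the 55 genes was 0.02, with 30 above 0 and 25 below. The 4 succinate dehydrogenase genes, the step of the cycle that sits in the inner membrane, had a median of 0.06 and a range from 0.04 to 0.10, with SDH3, a membrane anchor subunit, at the top (0.03 without WT replicate 1). LPD1, the dihydrolipoamide dehydrogenase shared by several complexes, and KGD4, a small subunit that links to the alpha-ketoglutarate dehydrogenase complex, were at 0.02 and -0.09. The 4 assembly factors of succinate dehydrogenase ranged from -0.08 to 0.13, with SDH6 at the top.

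The 8 genes of pyruvate dehydrogenase and its kinases and phosphatases, which feed the cycle from pyruvate, had a median of -0.01, with the kinase gene PKP2 lowest at -0.22. The PKP2 value was -0.02 without pex3 replicate 1 and -0.47 without pex3 replicate 3. The 7 isozyme genes had a median of 0.05, with IDP3, the peroxisomal NADP isocitrate dehydrogenase, at 0.29 (edgeR adjusted p 0.501). The glyoxylate cycle genes ICL1 (isocitrate lyase) and MLS1 (malate synthase) were at -0.02 and 0.07, and MLS1 ranged from 0.02 to 0.12 when a library was left out. The 7 genes for lipoate and iron-sulphur cofactor assembly had a median of 0.09, with AIM22, a lipoyl ligase gene, at 0.27 (edgeR adjusted p 0.587), or 0.13 without WT replicate 1.

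Among the 9 regulator genes, HAP4, the activating subunit of the CCAAT-binding complex, had the largest difference. It measured 571, 588 and 569 CPM in the pex3 libraries, against 384, 422 and 482 CPM in the WT libraries. All pex3 libraries were above all WT libraries, as in 8.72% of all tested rows, and the log2 fold change was 0.42 (SE 0.09). The adjusted p was 0.28 by edgeR and 0.0108 by DESeq2. Without WT replicate 1 the value was 0.35. The median over the 9 regulators was 0.03.

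Among the 12 carriers and linking enzymes, MAE1, the mitochondrial malic enzyme that makes pyruvate from malate, differed most. It measured 928, 879 and 956 CPM in the pex3 libraries, against 701, 698 and 707 CPM in the WT libraries. All pex3 libraries were above the WT libraries, as in 8.72% of all tested rows, and the log2 fold change was 0.39 (SE 0.07). The edgeR adjusted p was 0.118 and the DESeq2 adjusted p 0.000121. The median over those 12 genes was 0.01.

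Each member is a single coding exon with no other annotated gene overlapping it in the R64 annotation. IDH1 lies at chrXIV:557920-559002 on the minus strand, and IDH2 at chrXV:580250-581359 on the plus strand, on the same chromosome as LSC1 at chrXV:593057-594046. CIT1 lies at chrXIV:629622-631061 on the minus strand, and MDH1 at chrXI:279123-280127 on the plus strand.

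The 300 bases before each start codon were searched on both strands for CCAAT, the core element of the Hap complex (ATTGG on the other strand), and for GTCAC, the R box bound by Rtg1 and Rtg3 (GTGAC on the other strand). CCAAT was found before 7 of the 10 genes, where 41.8% of 6001 promoters of this length hold it. GTCAC was found before 3 of the 10, namely KGD1, LSC2 and FUM1, where 26.5% of promoters hold it. The sites of the genes with the largest fold changes, IDH2, IDH1 and CIT1, and of the malate dehydrogenase gene are shown because these genes varied most between libraries. They are from the RefSeq R64 sequence, read 5′ to 3′ on the strand of the gene, with the motif in capitals.
IDH1, chrXIV:559132-559156, minus strand: cttccgcttcATTGGcttattcttg
IDH2, chrXV:580151-580175, plus strand: gcatgacattATTGGatacactttt
CIT1, chrXIV:631340-631361, minus strand: ttgtgttATTGGaggatcgcaa
MDH1, chrXI:278866-278890, plus strand: ctcagcgttcATTGGctcaatcacg
MDH1, chrXI:278984-279008, plus strand: gttagcacgcATTGGgtgtttgtac
All 5 sites read ATTGG on the strand of the gene. The last base of the motif lies 140 bases before the start codon in IDH1, 85 in IDH2, 289 in CIT1, and 243 and 125 in MDH1. ACO1, KGD1 and FUM1 also hold CCAAT in this window, and KGD2, LSC1 and LSC2 do not. The match says only that these letters are present.

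The rows whose log2 CPM over the 6 libraries was most like the mean centred profile of the 10 genes were HMS2, CEP3, AIM34, CPT1 and LIF1, with Pearson r from 0.991 to 0.998 over 6 libraries. Of 5618 other rows, 169 had r above 0.9, so values above 0.9 were not confined to the rows named. What part the small number of libraries had in this count was not tested. HMS2 measured 20.8, 21.9 and 23.0 CPM in the pex3 libraries, against 10.7, 13.2 and 17.9 CPM in the WT libraries (log2 fold change 0.64, edgeR adjusted p 0.455). In the mean profile used to pick these rows, the pex3 libraries lie above the WT libraries. A higher level in the pex3 strain therefore follows from the choice and is not a separate result.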

How the data were processed

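Raw counts per gene or RNA feature were deposited by the authors, 1 column per library, and were matched to samples by strain and number. The submitters' processing notes name fastp 0.20.0, STAR, RSEM 1.3.3 and the build R64 without roles, so the deposited counts may be rounded estimates, and the use of strand in counting is not given in the sources used here. The labels' protocols describe biological triplicates and strand-specific poly(A) libraries.

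Counts were tested with edgeR 4.0.16 (R 4.3.3; glmQLFit, glmQLFTest, TMM factors, strain alone). filterByExpr left 5628 of 5631 rows, and p-values were adjusted over them by Benjamini-Hochberg (threshold 0.05). SE is the size of the log2 fold change over the square root of F. Levels are TMM-scaled CPM, and log2 CPM carried a prior count of 2. Coding lengths, symbols (5522 rows matched) and sequences came from RefSeq R64. Similar genes were searched with BLAST+ 2.17.0. Ratios were compared with exact permutation tests (scipy 1.17.1). A gene of the planned lists and the ratio that used it are not reported here.

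The members and lists were chosen with earlier results of these data known. Named were all members, their isozymes, the gene with the largest difference in each list, and the 5 rows most like the members. Alternatives were DESeq2 1.42.0, limma 3.58.1 (voom), other scalings and filters, a replicate block, a length correction (loess, span 0.3) and leaving out each library.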

Additional observations from a re-analysis of the deposited data

How the results depend on the processing

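The number of members called was 0 in both directions under all 15 alternatives, which included every library left out in turn, and the lowest member adjusted p ranged from 0.153 (DESeq2) to 0.842. Over all rows, edgeR called 8 genes higher and 2 lower in the pex3 strain. DESeq2 called 26 higher and 32 lower, and leaving out a library gave from 3 to 12 higher and from 0 to 5 lower. The cause was not tested. Replicate numbers are shared between strains, and the labels do not say what a number shares. Same-numbered libraries deviated from their strain means with correlations of -0.16, 0.23 and -0.26, and differently numbered ones with values from -0.24 to 0.32. These values were not corrected for coding length, whose relation to level differed between libraries, so they do not settle whether the numbers are pairs. The main fit used strain alone. With the replicate block 1 gene was higher and 0 lower, with 401 rows at an unadjusted p under 0.05, and the member median was 0.16. With the block and the length correction together 10 genes were higher and 2 lower, and the member median was 0.18. Leaving out a library moved the member median from 0.082 (without WT replicate 1) to 0.21, and the order of levels per length by 0 to 2 places.

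Reversed signs occurred for LSC1, KGD4, SDH6, CIT2 and some pair ratios, whose main log2 values ran from -0.144 (CIT2) to 0.128 (SDH6). LSC1 was at 0.015 with the length correction, at 0.017 with the replicate block and the length correction, and from -0.072 to 0.037 when a library was left out. Under the same omissions KGD4 ranged from -0.24 to 0.018, SDH6 from -0.13 to 0.34 and CIT2 from -0.31 to 0.076. The log2 ratio differences ranged from -0.029 to 0.009 for IDH1 over IDH2, from -0.11 to 0.013 for LSC1 over LSC2, from -0.054 to 0.16 for MDH1 over MDH2 and from -0.07 to 0.13 for MDH1 over MDH3. By Spearman correlation, 3 of the 5 rows most like the members had the top Spearman coefficient, which 22 of 5618 rows shared. LIF1 ranked 23 and CPT1 ranked 113 by that measure. Every member had at least 2960 counts in each library, and no fit varied depth apart from the number of libraries.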
